A study of Mus musculus with 30 samples.

Results

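Acetylation of lysine 27 on histone H3 (H3K27ac) was mapped in 2 mouse lung adenocarcinoma cell lines, and the 2179 regions described here were acetylated in CK1750 cells, with and without the G9a/Glp inhibitor UNC0638, while Tnm2 cells had no peak in either condition. They were selected on that pattern. All peaks of the 4 deposited H3K27ac lists on chromosomes 1 to 19 and X were merged where they overlapped or touched, which gave 37671 regions, and a region was a member if it held a peak in both CK1750 lists and in neither Tnm2 list. Members made up 5.78% of the merged regions (95% Wilson interval 5.55 to 6.02) and 11.7% of the 18627 regions that held a peak in both CK1750 lists. Their presence in CK1750 and absence from Tnm2 is therefore the definition and not a finding.

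Both lines were cultured either in 1 µM UNC0638 or in its vehicle, DMSO. Of the 9 H3K27ac samples, CK1750 contributed 3 in vehicle and 2 in inhibitor and Tnm2 contributed 2 in each, but the CK1750 vehicle samples carry only 2 replicate numbers, 1 of them sequenced again, and the CK1750 inhibitor samples carry 1. The deposited files hold a single merged peak list for each group, which libraries entered it is not stated, and the study gives another number of replicates than the labels, so differences between groups could not be tested and the spread between replicates is unknown. Both are established mouse cultures, so a contrast of CK1750 with Tnm2 is a contrast of 1 line with 1 other. The remaining 21 samples, which were H3K9me2 precipitates and input DNA of the same 4 conditions, were not analysed here. Read totals are not part of a peak list, so depth was unknown. The lists on the chromosomes used held 27340 (CK1750 DMSO) and 24592 (CK1750 UNC0638) peaks, and intervals given with shares cover counting error only.

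H3K27ac is laid down by the acetyltransferases p300 and CBP on the nucleosomes next to active promoters and enhancers. Enhancers differ more between cell types and between tumours than promoters do, and sequence-specific transcription factors decide which of them are used. G9a and Glp methylate lysine 9 of histone H3, a repressive modification, and UNC0638 blocks both enzymes. A region that kept its acetylation with the inhibitor is thus a region of the CK1750 pattern that was called in either state of the enzymes.

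As a check of the label, promoter peaks of defining genes were examined. The lung lineage factor Nkx2-1, the keratins Krt8 and Krt18 and the adherens junction gene Cdh1 had promoter peaks in all 4 lists, whereas the epithelial adhesion gene Epcam and the surfactant gene Sftpc had none in any. Of 4 leukocyte, 4 endothelial and 4 fibroblast genes, only Col1a1 (fibroblast matrix, scores of 102.58 and 51.89) had a promoter peak in CK1750.

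The strongest members serve to show the DNA in question. For each peak the caller gave a score, which is minus 10 times the log10 of the P value, starts at 50 in these lists and ranks peaks within a list, and members were ordered by the lower of their best CK1750 DMSO and best CK1750 UNC0638 score. The member with the highest lower score covered the whole of Sox2, a transcription factor of the foregut, of airway progenitors and of squamous lung tumours. Its promoter, from 250 bases before to 50 after the transcription start site (TSS) as RefSeq gives it on GRCm38.p6, lay inside the member and held 27 CpG sites.
Sox2 promoter (chr3:34649745-34650044, + strand): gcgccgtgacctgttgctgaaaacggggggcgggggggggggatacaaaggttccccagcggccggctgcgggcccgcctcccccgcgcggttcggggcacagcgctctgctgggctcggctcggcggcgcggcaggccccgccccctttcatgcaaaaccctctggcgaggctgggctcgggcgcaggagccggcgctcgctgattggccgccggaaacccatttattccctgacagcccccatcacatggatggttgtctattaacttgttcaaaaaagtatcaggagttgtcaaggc

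The central 300 bases of the 5 highest-ranked distal members, those with no TSS within 1 kb, follow in the same rank order (mm10, + strand). Capitals mark matches of the CEBP motif TTGCNNAA, which among 25 motifs differed most in these central windows between distal members and distal regions found only in Tnm2. Only the Pip5k1a member held a match.
Nrp2 member (chr1:62767500-62767799): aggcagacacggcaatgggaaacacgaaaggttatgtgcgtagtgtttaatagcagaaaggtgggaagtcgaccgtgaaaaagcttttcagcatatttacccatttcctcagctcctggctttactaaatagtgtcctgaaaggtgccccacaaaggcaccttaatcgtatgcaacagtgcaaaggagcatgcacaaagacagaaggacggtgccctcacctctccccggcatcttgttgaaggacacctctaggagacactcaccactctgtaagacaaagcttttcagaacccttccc
Cradd member (chr10:95265425-95265724): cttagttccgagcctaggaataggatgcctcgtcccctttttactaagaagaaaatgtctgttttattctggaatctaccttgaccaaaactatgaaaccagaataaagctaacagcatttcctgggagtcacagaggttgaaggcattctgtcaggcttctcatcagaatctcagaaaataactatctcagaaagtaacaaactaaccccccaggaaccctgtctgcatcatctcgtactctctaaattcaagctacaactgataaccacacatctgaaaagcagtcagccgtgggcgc
Tnni1 member (chr1:135794451-135794750): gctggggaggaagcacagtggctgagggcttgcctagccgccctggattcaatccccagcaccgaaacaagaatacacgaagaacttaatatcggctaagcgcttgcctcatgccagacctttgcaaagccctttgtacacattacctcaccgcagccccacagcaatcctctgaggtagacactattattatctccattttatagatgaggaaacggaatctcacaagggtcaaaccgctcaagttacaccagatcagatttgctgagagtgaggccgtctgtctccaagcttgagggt
Plekha2 member (chr8:25068324-25068623): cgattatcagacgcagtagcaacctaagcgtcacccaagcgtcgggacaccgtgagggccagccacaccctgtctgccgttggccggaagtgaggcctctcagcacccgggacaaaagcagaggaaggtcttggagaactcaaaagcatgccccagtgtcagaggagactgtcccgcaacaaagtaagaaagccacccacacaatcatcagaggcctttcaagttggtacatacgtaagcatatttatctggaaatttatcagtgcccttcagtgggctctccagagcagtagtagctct
Pip5k1a member (chr3:95066303-95066602): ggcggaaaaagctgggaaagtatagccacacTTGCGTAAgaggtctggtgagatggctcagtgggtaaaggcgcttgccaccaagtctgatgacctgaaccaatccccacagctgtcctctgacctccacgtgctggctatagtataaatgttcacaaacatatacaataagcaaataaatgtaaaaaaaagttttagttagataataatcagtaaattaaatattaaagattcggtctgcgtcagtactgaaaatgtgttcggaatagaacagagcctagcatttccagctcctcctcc

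The data of these strongest members were as follows. The Sox2 member (chr3:34648994-34657846, 8853 bp) had a best score of 1597 with DMSO, from 4 peaks, and of 2796 with UNC0638, from 2 peaks, and its centre lay in an intron of the overlapping non-coding gene Sox2ot. These scores stood at the 93.1 and 97.9 percentile of their lists, and the nearest Tnm2 peak was 567 kb away. The Nrp2 intronic member (chr1:62766472-62768828) scored 1493 and 1754 and lay 62.8 kb from the nearest TSS of Nrp2, a receptor for semaphorins and VEGF. The next member, in an intron of the death-domain adaptor gene Cradd (chr10:95264200-95266950), scored 1640 and 1396. The strongest DMSO score of all members, 2560 against 1207 with UNC0638, belonged to a region over the TSS of Pde8a, a cyclic AMP phosphodiesterase (chr7:81212273-81214630). These 4 were the members whose lower score reached 1000.

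Of the other 6 of the highest 10, 5 had their centre in an intron. The member in the troponin gene Tnni1, 3.73 kb from its TSS, scored 874 with DMSO and 920 with UNC0638. Nexmif, an X-linked gene of neurite outgrowth, held a member over its TSS with 1341 and 841. These were followed by introns of the phosphoinositide-binding adaptor gene Plekha2 (1130 and 805) and of the lipid kinase gene Pip5k1a (754 and 1114). Pmaip1, which encodes the apoptosis protein NOXA, was the nearest coding gene, at 46.8 kb, of a member in a non-coding gene (848 and 753). The last of the 10, at the cyclin D1 gene Ccnd1 (chr7:144940907-144943601, 883 and 703), lay 0.982 kb from the TSS and only 0.163 kb from a Tnm2 peak. A Tnm2 peak was also 1.11 kb from the Pmaip1 member, whereas the nearest was 146 kb from the Nexmif member. Strong members thus included both regions far from any Tnm2 peak and regions close to one. None of the 10 had a near-identical copy elsewhere on a chromosome.

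**Figure D1:**
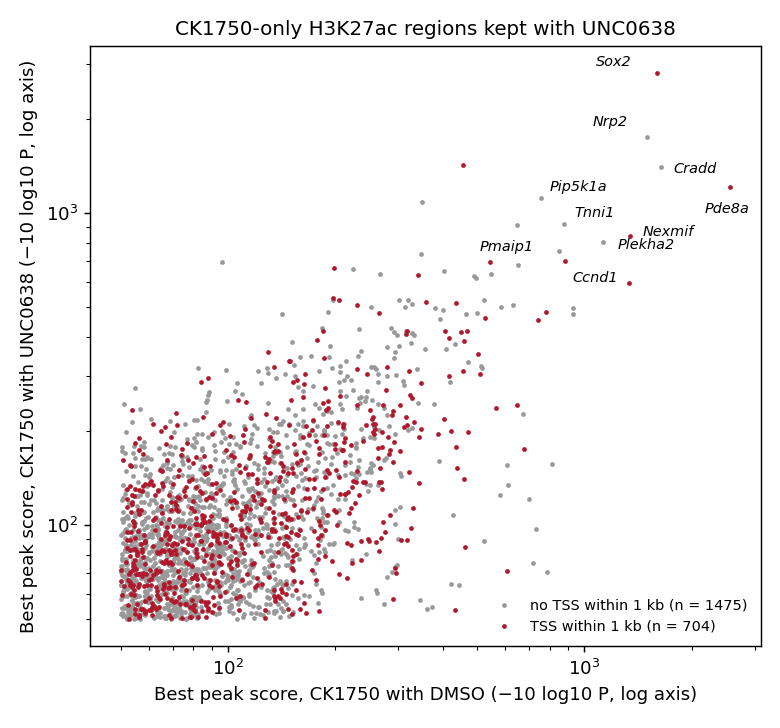
Best peak score of each of the 2179 members in CK1750 with DMSO (horizontal axis) and with UNC0638 (vertical axis), both as minus 10 log10 P on log axes, with the 10 highest-ranked members named by their nearest coding gene and members with a TSS within 1 kb in red. Most points crowd near the cutoff of 50, and the Sox2 member lies at the top with 1597 and 2796.

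Most members were weak. The lower score had a median of 75.28 and quartiles of 59.13 and 109.1. It reached 100 in 633 members (29.1%), 200 in 157 (7.21%) and 500 in 17 (0.780%), while 83 members had both best scores under 60. The median member stood at the 34.1 percentile of the DMSO list and at the 29.8 percentile of the UNC0638 list. Of all members, 94.0% consisted of a single peak in each list.

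Peaks of members were also narrow. Their median width was 653.5 bp with DMSO and 785 bp with UNC0638, compared with 835 and 1048 bp over all peaks of these lists. It was 1146 and 1386 bp for peaks in the 12885 regions that held a peak in all 4 lists. These sets were not matched for score. In members with a lower score of at least 100 the DMSO median was 914 bp, so narrow peaks went with low scores. More bases were covered with UNC0638 than with DMSO in 67.6% of members (65.7 to 69.6) and in 69.0% of the regions shared by all lists (68.2 to 69.8), a like share.

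At the edge of the rule, the weakest members were a region 2.02 kb from a TSS of Ly6e (76.13 with DMSO, 50.03 with UNC0638) and a region 0.596 kb from a TSS of Cluh (50.05 and 66.01). Just outside, a region near Dcst2 (176.24 and 80.11) held a Tnm2 UNC0638 peak with a score of 50. Among the 16448 regions of both CK1750 lists that did hold a Tnm2 peak, 530 had a best Tnm2 score under 60. The strongest regions called with DMSO alone scored 593.26 and 498.18, and the strongest with UNC0638 alone scored 317.71. Their nearest coding TSSs were those of Gulp1 at 262 kb, Ube4b at 9.56 kb and Smoc2 at 56.5 kb.

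How often acetylation that only CK1750 carried was also called with UNC0638 is described next, without a test, since both values enter the definition. Of 6022 CK1750 DMSO regions without a Tnm2 peak, 36.2% (35.0 to 37.4) had a UNC0638 peak and so became members, against 90.2% of the 18239 CK1750 DMSO regions with a Tnm2 peak. The share climbed with the DMSO score, from 25.7% of 4635 regions at 50 to 100, to 65.9% at 100 to 200, 84.5% at 200 to 500 and 41 of 42 regions at 500 and over. In the same score bins it was 64.1, 89.2, 98.9 and 99.9% where Tnm2 also had a peak. The gap between CK1750 regions without and with a Tnm2 peak was thus widest for weak peaks, and it is given as a description only. In the opposite direction, 18.4% of 8034 Tnm2 DMSO regions without a CK1750 peak were kept with UNC0638, which gave 1478 regions. The Tnm2 list was much shorter with UNC0638 (18789 peaks) than with DMSO (30631 peaks), which bears on that share and on each comparison with Tnm2-only regions.

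**Figure D2:**
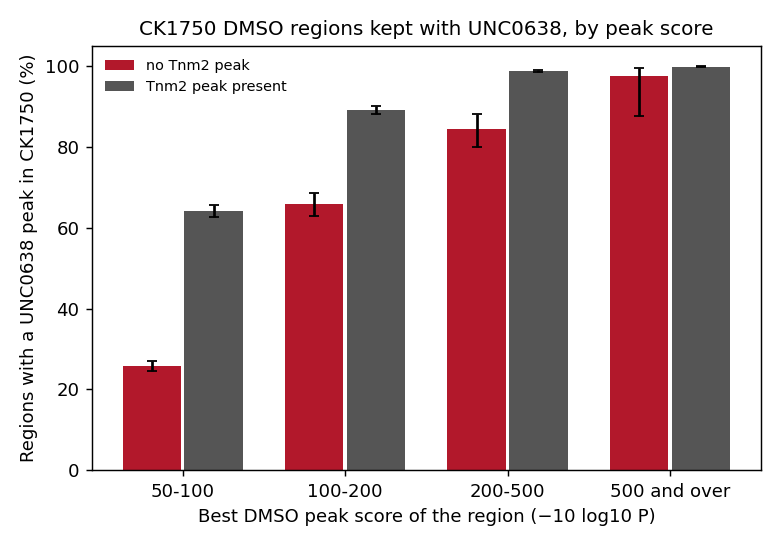
Share of CK1750 DMSO regions that also held a CK1750 UNC0638 peak (vertical axis, percent), by the best DMSO score of the region (horizontal axis, minus 10 log10 P), for regions without (red) and with (grey) a Tnm2 peak. Error bars are Wilson 95% intervals, and the red bars climb from 25.7 to 97.6% while the grey bars climb from 64.1 to 99.9%.

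Members were mainly distal. A TSS lay within 1 kb of 704 members, or 32.3% (30.4 to 34.3), compared with 21.4% (19.4 to 23.6) of the Tnm2-only regions kept with UNC0638, 65.5% of the regions in all 4 lists and 38.2% of all merged regions. The comparison with the regions in all 4 lists depended on score: among regions with a lower score of 50 to 100 the shares were 29.3% (27.1 to 31.6) for members and 32.3% (30.1 to 34.7) for shared regions, whereas at 200 to 500 they were 38.6% (30.9 to 46.8) and 66.1% (64.5 to 67.6). Of the 1475 distal members, 55.3% had their centre in an intron, 40.8% between genes and 3.86% in an exon. The median distance of a member to the nearest TSS was 4.98 kb, against 7.31 kb for Tnm2-only kept regions. It was 3.56 kb for all merged regions and 0 kb for regions in all 4 lists, so members lay farther away than merged regions in general.

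Promoter members held fewer CpG sites than shared promoters and more than promoters that only Tnm2 kept. The central 300 bp of promoter members held a median of 16 CpG sites, beside 18 in all merged promoter regions. The median was 24 in promoter regions with a peak in all 4 lists and 6 in the 317 promoter regions that only Tnm2 kept. These classes were not matched for score. A GC box, GGGCGGG on either strand, the site of SP and KLF factors, was present in 24.1% (21.1 to 27.4) of promoter members. It was present in 28.0% of all merged promoter regions, 33.6% of the shared promoters and 14.8% (11.3 to 19.2) of the Tnm2-only promoters. The promoter members with the highest lower scores, chosen after their values were seen, included Auts2 (1329 with DMSO and 595 with UNC0638), a gene of neuronal development, the Notch target Hey1 (437 and 513), the tetraspanin-like surface gene Tm4sf1 (458 and 1420), the zinc-finger factor Zic5 (740 and 454), Msrb3 (526 and 459), a methionine sulfoxide reductase, and the membrane endopeptidase gene Mme (460 and 388).

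Distance to Tnm2 acetylation varied widely. The nearest Tnm2 peak lay at a median of 8.59 kb (quartiles 1.75 and 32.3 kb). It was within 1 kb for 431 members (19.8%), which therefore lay close to DNA that was acetylated in Tnm2, and farther than 100 kb for 211 members (9.68%).

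Most members stood alone, and a minority lay in runs. Joining neighbouring members across gaps up to the length commonly used to stitch enhancers into super-enhancers gave 168 runs of 2 or more, which held 16.2% of members, and 15 runs of 3 or more. The largest run (chr14:21982155-21994593, 12.4 kb) held 5 members across Zfp503, a zinc-finger repressor that represses Gata3, and its flanks, with DMSO scores of 466, 498, 208, 782 and 289 and UNC0638 scores of 475, 618, 173, 479 and 226 in genome order. All 5 were at least 134 kb from a Tnm2 peak. The other run with more than 3 members held 4 (chr6:52473129-52487376) between genes, 76.3 kb from the nearest coding TSS, that of the mitochondrial dehydrogenase gene Hibadh, with scores of 137 to 226 with DMSO and 102 to 295 with UNC0638.

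Of the runs with 3 members, the 8 that covered most bases were nearest to Ociad2, Dut, Prkci, Eya2, Usp54, Rnf43, Kat2b and Nrp2, in that order. The Ociad2 run, between genes, scored from 69.55 to 351 with DMSO and from 73.08 to 1078 with UNC0638. The Eya2 run lay within that gene, a transcriptional coactivator of homeobox factors, and scored 78.25 to 468 with DMSO and 100 to 419 with UNC0638. The Prkci run overlapped the gene of an atypical protein kinase C known as a lung cancer oncogene (55.45 to 278, and 56.06 to 164), the Kat2b run overlapped an acetyltransferase gene (52.99 to 341, and 50.57 to 634), and the run near Dut overlapped the ion transporter gene Slc12a1 (90.13 to 286, and 74.61 to 427). No region inside any of the 10 runs held a Tnm2 peak.

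By nearest coding gene, 1737 genes were assigned at least 1 member, 1427 of them exactly 1, and 85 were assigned 3 or more. Nrp2 came first with 7. Along the gene these scored 102, 931, 65.79, 97.37, 94.4, 51.3 and 1493 with DMSO, and 168, 474, 156, 171, 54.72, 55.18 and 1754 with UNC0638. The member over the Nrp2 TSS was thus weak, and the 2 strong members were intronic, 1.23 and 62.8 kb from a TSS. Within 200 kb of Nrp2 on either side were 13 merged regions, and none of them held a Tnm2 peak.

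Cdkn2b, a cyclin-dependent kinase inhibitor, was the nearest coding gene of 6 members, all of them 61.3 to 175 kb from its TSS. The strongest of these (chr4:89444328-89446627) scored 319 and 418, and the next (chr4:89478550-89480006) 221 and 292. Of the 30 merged regions within 200 kb of Cdkn2b, 13 held a Tnm2 peak. The member closest to Cdkn2b lay 9.41 kb from a Tnm2 peak, and the others lay 44.9 to 103 kb from one. Those others fell inside the interval chr4:89382849-93334511, which held no Tnm2 peak and is described below. The Notch coactivator gene Maml3 was also nearest to 6 members, all intronic, the strongest at 295 and 301. Of the 46 merged regions within 200 kb of Maml3, 27 held a Tnm2 peak. Kirrel3, an immunoglobulin-superfamily adhesion gene, had 6 as well, 1 of them 757 kb away. Another covered a Kirrel3 TSS (196 and 76.62), and of the 4 in its introns the strongest scored 151 and 385. Within 200 kb of Kirrel3, 9 of 19 merged regions held a Tnm2 peak.

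The genes with 5 members each were Zfp503 (above), Shroom3, Lrmda, Hibadh, Pik3r1 and Myo1e. Shroom3, which binds actin and shapes epithelia, had its strongest member 4.62 kb from a TSS at 432 and 379. Those of Lrmda, next to Zfp503, and of Myo1e, a class I myosin gene, scored 197 and 182, and 203 and 121. At Pik3r1, which encodes the regulatory subunit of PI3 kinase, scores did not exceed 148 with DMSO and 211 with UNC0638. Many merged regions within 200 kb of these genes held a Tnm2 peak. They were 32 of 48 at Shroom3, 29 of 46 at Myo1e and 11 of 17 at Hibadh. At Lrmda they were 12 of 27, at Zfp503 8 of 16 and at Pik3r1 6 of 12. The strongest members of these genes lay from 0.305 kb (Pik3r1) to 136 kb (Zfp503) from a Tnm2 peak.

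Within 200 kb of Sox2 there were only 3 merged regions, and all 3 were members. The second (chr3:34663360-34665652) scored 416 and 299, and the third (chr3:34747152-34748653), 96.7 kb from the TSS, scored 134 and 159. Other members lay in longer stretches without any Tnm2 peak. The interval chr1:61639736-63112665 (1473 kb), with Nrp2, Ino80d and Pard3b, held 7 members. The interval chr4:89382849-93334511 (3952 kb) held 6 members, 16 CK1750 DMSO peaks and 11 CK1750 UNC0638 peaks, and the coding genes Dmrta1, Elavl2, Gm12666, Izumo3, Tusc1 and Zfp352. Next came intervals at Zfp503 (739 kb, 6 members), Kirrel3 (587 kb, 5 members) and chr15:90225190-93273197 (3048 kb, 4 members). DNA copy number of the lines was not measured here, so missing acetylation and missing DNA in Tnm2 cannot be told apart in such stretches.

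Members were unevenly spread over chromosomes. On X they made up 12% of 708 merged regions (9.81 to 14.6), the highest share, followed by 9.14% on chromosome 10, 8.40% on chromosome 9 and 7.48% on chromosome 3. Chromosome 19 had the lowest share with 2.80% (2.09 to 3.75). The Tnm2-only kept regions took 2.12% (1.29 to 3.47) of regions on X and 8.14% (6.88 to 9.62) on chromosome 19. On X the lists held 605 and 463 peaks in CK1750 and 498 and 260 in Tnm2, with DMSO and UNC0638, while on chromosome 19 they held 1066 and 919, and 1380 and 954. With a lower score of at least 100 the X still led, with 34 of its regions (4.80%) against 1.68% of all regions. Copy number, again, cannot be told apart from acetylation in these shares.

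**Figure D3:**
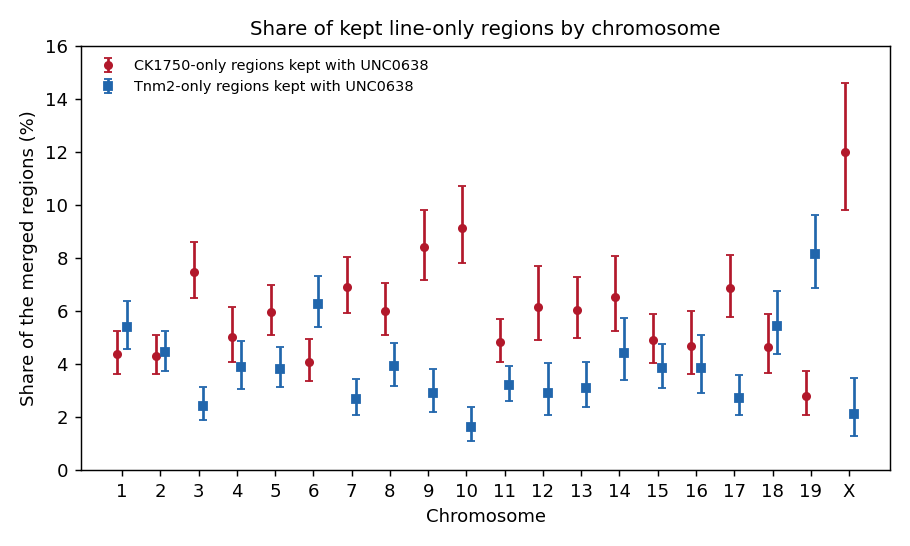
Share of the merged regions of each chromosome (horizontal axis) that were members (red circles) or Tnm2-only regions kept with UNC0638 (blue squares), in percent with Wilson 95% intervals as bars. Members reach 12% on X and fall to 2.80% on chromosome 19, where the Tnm2-only regions reach 8.14%.

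Which sequences did distal members carry? In their central 300 bp, the AP-1 motif TGANTCA, the site of FOS and JUN dimers, was present in 15.3% (13.6 to 17.3) of the 1475 distal members. That was near the 13.9% (12 to 16) of 1161 distal Tnm2-only kept regions and the 15.2% of all 23280 distal regions, below the 19% (17.9 to 20.2) of distal regions in all 4 lists, and above the 12.2% (11.1 to 13.4) of those called only in CK1750 with DMSO. Within members it was 14.1% (12.2 to 16.3) at a lower score of 50 to 100, 16.8% (12.9 to 21.6) at 100 to 200 and 24.7% (17.2 to 34.2) at 200 and over. In the same bins it was 16.6% (14.5 to 18.9), 18.6% (16.5 to 20.9) and 20.5% (18.8 to 22.2) of distal regions in all 4 lists, so the share also rose with score there, the intervals of members and shared regions overlapped in each bin, and at 200 and over the order turned round.

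Other motifs were less frequent in members than in the Tnm2-only regions. CEBP matches were found in 9.42% (8.04 to 11) of distal members and in 145 of 1161 distal Tnm2-only regions (10.7 to 14.5%), the GATA motif AGATAAG in 3.39% (2.58 to 4.44) and 6.03% (4.80 to 7.55), and the NF-kB motif GGNNTTTCC in 4.88% (3.89 to 6.10) and 7.49% (6.12 to 9.15). For GATA and NF-kB these intervals did not overlap, among 25 motifs compared without a test. The shares over all distal regions were 11, 4.48 and 6.38%. TEAD, RUNX, SOX and NKX2-1 motifs, ACATTCC, then TGTGGTT, then AACAATG and finally CACTTGA, differed by less than 1 percentage point between members and Tnm2-only regions.

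Acetylated nucleosomes lie beside factor-bound DNA rather than on it, so the position of matches was also examined, in a 1000 bp window chosen after the data had been seen. In distal members AP-1 matches were less dense at the centre than in the flanks. There were 0.551 matches per kb in the central 300 bp and 0.777 per kb in the rest of the window. The order was the opposite in Tnm2-only regions (0.517 and 0.481) and in regions in all 4 lists (0.729 and 0.631). It was the same as in members in regions only in CK1750 with DMSO (0.446 and 0.565). Over all distal regions the values were 0.563 and 0.584, so the central density of members was near that of all distal regions. Over 1000 bp, 50.7% (48.2 to 53.3) of distal members held a match, compared with 39.4% (36.6 to 42.2) of Tnm2-only regions, 39.3% (37.6 to 41.1) of CK1750 DMSO-only regions, 48.7% (47.2 to 50.1) of shared regions and 43.5% of all distal regions. Whole regions had a median width of 904 bp in members, 1014 bp in Tnm2-only, 1766 bp in shared and 500 bp in CK1750 DMSO-only regions, so the window often reached past a region. The gap of 11.3 points to the Tnm2-only regions was the widest of the 25 motifs at this window. The GATA share was 14.5% in members against 19% in Tnm2-only regions, and 14.7% over all distal regions, near that of members. For NF-kB these shares were 15.5, 19.6 and 18.2%, with 15.8% in CK1750 DMSO-only regions. For RUNX they were 25.3, 22.4 and 23.5%.

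**Figure D4:**
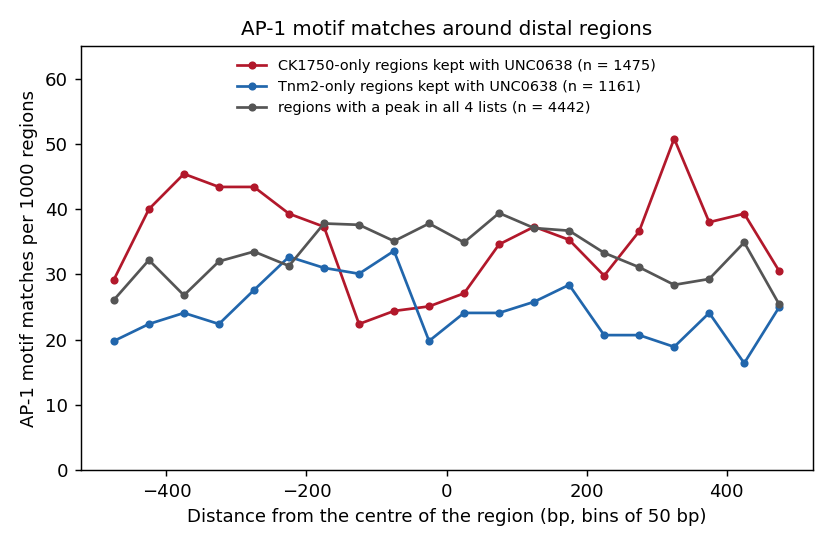
AP-1 motif matches per 1000 distal regions in bins of 50 bp (vertical axis) against the distance from the centre of the region in bp (horizontal axis), for members (red), Tnm2-only regions kept with UNC0638 (blue) and regions in all 4 lists (grey). In members the line dips to 22.4 at the bin centred 125 bp before the centre and peaks at 50.8 in the bin centred 325 bp after it.

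Of the distal members, 239 (16.2%) held 2 or more AP-1 matches in 1000 bp and 52 (3.53%) held 3 or more, with at most 4. The 3 with 4 matches and the highest lower scores, again chosen after their values were seen, are shown by 240 bases that hold 2, 2 and 3 of these matches (mm10, + strand, matches in capitals). They lay 515 kb from a TSS of Tmem38b (144 and 107), in an intron of Trak1 (101 and 123) and 138 kb from a TSS of the hyaluronan synthase gene Has2 (84.27 and 99.96).
Tmem38b member (chr4:54355510-54355749): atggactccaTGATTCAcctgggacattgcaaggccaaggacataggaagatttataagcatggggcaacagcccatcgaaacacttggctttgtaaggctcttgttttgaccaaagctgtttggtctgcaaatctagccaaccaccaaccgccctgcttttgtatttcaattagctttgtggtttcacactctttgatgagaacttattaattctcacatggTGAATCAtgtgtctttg
Trak1 member (chr9:121395984-121396223): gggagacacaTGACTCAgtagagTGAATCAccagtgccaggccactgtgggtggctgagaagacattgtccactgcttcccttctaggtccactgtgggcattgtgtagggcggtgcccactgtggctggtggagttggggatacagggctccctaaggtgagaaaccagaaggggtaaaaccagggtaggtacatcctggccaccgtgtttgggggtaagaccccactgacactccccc
Has2 member (chr15:56832678-56832917): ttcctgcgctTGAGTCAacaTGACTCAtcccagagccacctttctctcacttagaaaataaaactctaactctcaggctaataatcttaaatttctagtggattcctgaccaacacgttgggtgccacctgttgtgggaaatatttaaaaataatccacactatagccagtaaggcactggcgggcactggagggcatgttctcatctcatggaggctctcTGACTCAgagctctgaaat

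A search without given motifs was made with all 7-mers, both strands joined. The 10 7-mers most in excess in distal members over Tnm2-only regions, and the 10 most deficient, were picked on odd-numbered autosomes and looked up on even-numbered ones. In the central 300 bp, 3 of the 10 higher and 6 of the 10 lower 7-mers kept their direction on the even-numbered autosomes. With the 1000 bp window 8 and 9 did, but that window was chosen after the data had been seen. The even-numbered autosomes were thus no independent check for it. Some of the 7-mers picked there also overlap, such as TGACTCA and ATGACTC, so they do not count separately. In that window the 7-mer most in excess was TGACTCA, an AP-1 site. It was present in 41.6% of members and 29.8% of Tnm2-only regions on odd-numbered autosomes, and in 37.6 and 28.8% on even-numbered ones, where regions in all 4 lists had 38.6%. The most deficient was CAGGCAG, with 34.1 against 45.2% and then 37.7 against 38.9%, followed by GAGGCCC with 14.6 against 24.8% and then 16.2 against 21.4%.

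Base composition differed little. The median GC content of the central 300 bp of distal members was 49.3%, beside 50% in Tnm2-only and 49.7% in shared regions. Repeats took a mean of 21% of a distal member, 17.3% of a Tnm2-only and 19.2% of a shared region. A near-identical copy elsewhere, aligned over at least 80% of the region at 95% identity or more, existed for 57 members (2.62%), whose peaks can gain or lose reads to the copy.

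Genes near members were then counted in 23 lists. As background, 16.8% of 21728 protein-coding genes had a member within 50 kb of a TSS, and 3.06% had one within 1 kb. Of the 373 distinct genes of the lists, 22.3% (83 genes) had a member within 50 kb and 3.22% (12 genes) had one at a promoter, so the promoter share was close to the background. The median number of members within 50 kb was 0 over all coding genes, and 0 in 22 of the lists. The exception was the list of axon guidance genes, with a median of 1, which holds Nrp2, the coding gene nearest to most members. All lists were drawn up with earlier results of these data known, so none is independent of them. In the sentences that follow, a pair of values gives the DMSO and the UNC0638 score of a gene's best member.

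**Figure D5:**
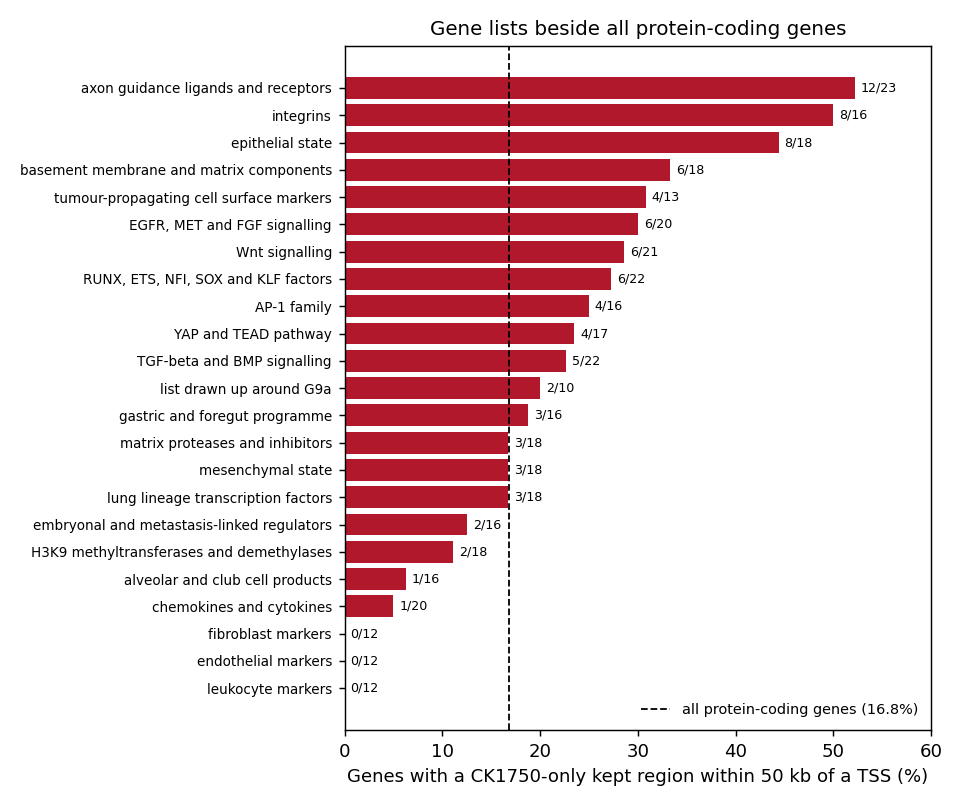
Share of the genes of each list with a member within 50 kb of a TSS (horizontal axis, percent), with the counts at the bar ends and the share over all protein-coding genes, 16.8%, as a dashed line. Axon guidance genes (12 of 23), integrins (8 of 16) and epithelial genes (8 of 18) have the longest bars, and leukocyte, endothelial and fibroblast markers are at 0.

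Among axon guidance ligands and receptors, which epithelia also use for adhesion and migration, 12 of 23 genes (52.2%) had a member within 50 kb. The receptor gene Nrp2 had 5 members and Nrp1 had 3. Nrp1, like Nrp2 a coreceptor of semaphorins and VEGF, had a pair of members at its promoter (102 and 113, 115 and 167). Sema3b, a secreted semaphorin, also had 3, the best at 107 and 252, 14.9 kb from a TSS. The Eph receptor gene Epha2 had 2, the better of them 0.884 kb from a TSS (75.38 and 99.26).

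Integrins, the receptors for matrix, had a member in 8 of 16 genes (50%), 1 member each and none at a promoter. The best was 40.4 kb from a TSS of Itgb4, the laminin-binding beta subunit of hemidesmosomes (177 and 393), followed by Itgb5 (164 and 131). Without members within 5 kb of a Tnm2 peak, integrins had 2 of 16 and all coding genes 9.76%, and epithelial genes had 3 of 18, while axon guidance genes had 9 of 23. Itgb3 (87.01 and 93.74), Itga5 of the fibronectin receptor (77.94 and 120, 3.06 kb from a TSS) and Itga6 (50.23 and 64.14), the partner of Itgb4, were weaker. Basement membrane and matrix components had 6 of 18. Col5a1, a fibrillar collagen, held a member at its promoter (200 and 182), Fbn1, which encodes fibrillin, had 1 at 3.98 kb (199 and 87.48), and Col4a1, a collagen of basement membranes, had 1 at 36.6 kb (97.1 and 136). Proteases and inhibitors had 3 of 18 (16.7%), near the 16.8% of all coding genes, among them the Adam12 promoter (347 and 204) and Plau (119 and 63.27).

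Epithelial genes had 8 of 18 (44.4%), again with none at a promoter. Krt8 had 3 members and Krt18, its filament partner in the same locus, had 2, and they shared the best (87.29 and 252). The tight junction genes Cldn3 and Cldn4 shared a member 3.16 kb from a TSS of Cldn4 (162 and 215). Mesenchymal genes had 3 of 18 (16.7%), near the 16.8% of all coding genes. All were weak: Vim (75.95 and 101), S100a4 (59.4 and 78.14) and Sparc (57.1 and 54.03).

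Of transcription factors that set lung identity, 3 of 18 (16.7%) had a member, near the 16.8% of all coding genes. Besides Sox2 these were Foxp1 (2 members, 279 and 371 for the better) and Id2 (74.78 and 56.65). Foregut genes had 3 of 16 (18.8%), also near that share. These were Foxa3 (88.53 and 123) and the neighbours Cdx2 and Pdx1, which shared a member (58.8 and 105). Among products of mature lung epithelium, 1 of 16 had any, Ager with 2 (106 and 77.84). Within 100 kb, 4 of these 16 genes had a member (25%), near the 26.7% of all coding genes at that distance. In the list of RUNX, ETS, NFI, SOX and KLF factors, 6 of 22 had a member, with Nfic (3 members, 420 and 287), Etv6 (328 and 413), Runx2 (211 and 290) and Klf6 (2 members, 96.67 and 94.58) foremost. Regulators linked to metastasis had 2 of 16, Runx2 and Hmga2 (117 and 68.37).

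The AP-1 genes themselves had a member in 4 of 16, at Batf (184 and 60.56), Atf3 (88.14 and 100), Fosl2 (66.57 and 70.19) and Bach2 (58.52 and 135), none at a promoter. Genes of YAP and TEAD, the effectors of Hippo signalling, had 4 of 17. Yap1 held a weak member 0.040 kb from a TSS (66.35 and 82.76), Vgll4 had 2 (156 and 159 for the better), the target gene Ccn1 had 1 at 30.7 kb (206 and 322), and Tead4 had 1 (59.91 and 93.31).

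Wnt signalling had 6 of 21, led by Rnf43, a ubiquitin ligase that removes Wnt receptors, with 3 members, the best 1.31 kb from a TSS (302 and 376) and the other 2 within 1 kb of one. Wnt7b held a member over its TSS (51.97 and 130), Wnt7a had 1 at 7.36 kb (146 and 66.41), the receptor gene Fzd2 had 1 (80.76 and 101), and Lgr4, a receptor for R-spondins, had 1 (141 and 158). TGF-beta and BMP signalling had 5 of 22, with members at the promoters of the inhibitors Smad6 (304 and 242) and Fst (216 and 87.39), and 2 members each for Id1 (98.63 and 150 for the better) and Tgfb1 (73.89 and 84.42). EGFR, MET and FGF signalling had 6 of 20, among them Fgf2 (2 members, 63.74 and 129), the EGFR ligand gene Ereg (131 and 91.34), the receptor gene Erbb3 (73.21 and 99.09), and Dusp4 (92.19 and 121), a phosphatase that dampens ERK. Chemokines and cytokines had 1 of 20, Il1a (255 and 222).

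Surface markers of tumour-propagating cells had 4 of 13, namely Ly6a (2 members, 51.97 and 107 for the better, 34.6 kb from a TSS), which encodes Sca-1, and Itgb4, Itga6 and Itgb3, which the integrin list also holds. The Ly6a DMSO score was near the cutoff of 50. Within 10 kb the list had 0 of 13, beside 6.39% of all coding genes. It had 1 of 13 with a lower score of at least 100, and 1 of 13 without members within 5 kb of a Tnm2 peak. All coding genes were at 5.30 and 9.76% under these settings, so such small counts were near the background. In a further list of 10 genes, drawn up around G9a with the study in view and so not independent of these lines, Ly6a and Wnt7a had a member. H3K9 methyltransferases and demethylases had 2 of 18, with Suv39h1, an X-linked H3K9 methyltransferase gene, carrying a member over its TSS (189 and 151), and Setdb2 having 1 at 43.5 kb (82.03 and 67.42). The 3 lists of leukocyte, endothelial and fibroblast markers, 12 genes each, had no member within 50 kb, beside 16.8% of all coding genes. At 100 kb the counts were 3 of 12, 0 of 12 and 1 of 12 in that order, beside 26.7% of all coding genes. For leukocyte and fibroblast genes the absence thus depended on the window.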

How the data were processed

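H3K27ac ChIP-seq peak lists of CK1750 and Tnm2 cells, with DMSO or 1 µM UNC0638, were analysed as deposited. According to the study's methods and the submitters' processing notes (Bowtie2, SAMtools, MACS 1.4.2, mm10), the authors mapped reads to mm10 and called peaks with a P value cutoff of 1e-05. The deposited score is minus 10 log10 P, so lists start at 50. Scores depend on depth, which was unknown, and were used only within a list. Samples were grouped by line, treatment and mark from the labels, and each group had 1 pooled list. The control set against the precipitates in peak calling is not given in the sources used here.

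Lists were merged (touching or overlapping by 1 bp or more). TSSs came from GENCODE M21, sequences from GRCm38.p6, which is mm10, and the Sox2 promoter from RefSeq. No peak ended beyond a chromosome. Motifs were searched on both strands. Copies were sought with minimap2 2.31 (preset asm20). Scripts ran in Python 3.11.15 (scipy 1.17.1, pandas 2.3.3, numpy 2.4.6), and the merging, distance and motif steps were tested on simulated lists. Shares carry Wilson 95% intervals, and no p-value was computed.

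Members, gene lists and motifs were chosen with earlier results of these data known. Named were the 10 members with the highest lower score, the 10 runs with most members, the 10 coding genes nearest to most members, and of each list every gene with a member at its promoter and up to 4 with most members within 50 kb, some of which are not reported here. Alternatives varied scores, windows, overlaps, gaps and annotation.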

Additional observations from a re-analysis of the deposited data

How the results depend on the processing

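No paired analysis was possible because each list pools the samples of its group, and for the same reason no replicate could be left out. The number of members was 637 with CK1750 peaks of a score of at least 100 and 1299 with no Tnm2 peak within 5 kb. The share kept with UNC0638 was 45.2% with a score of at least 100 in both CK1750 lists and 42.6% with equal numbers of highest-scoring peaks. The promoter share was 39.4% with 2.5 kb windows, 39.7% with a lower score of at least 100 and 28.0% with protein-coding TSSs, and the median distance was 8.87 kb with those TSSs and 3.80 kb at the higher score. The AP-1 share was 9.97, 26.6 and 50.7% in 200, 500 and 1000 bp (the last chosen after the data had been seen) and 18.8% at the higher score. Median GC was 47.6% over whole regions. The count of 7-mers that kept their direction was 17 of 20 in 1000 bp, a window chosen later, against 9 in 300 bp. List genes with a member were 9.65% within 10 kb, 33.0% within 100 kb, 6.17% at the higher score and 11.5% without members within 5 kb of a Tnm2 peak, where all coding genes were at 6.39, 26.7, 5.30 and 9.76%. With members of the higher score, axon guidance genes had 4 of 23, integrins 2 of 16 and epithelial genes 3 of 18. Runs numbered 110 with a 5 kb gap, the X share was 4.80% and the median DMSO width 914 bp at the higher score. Smaller shifts gave 1748 members with no Tnm2 peak within 1 kb, 1953 with an overlap of 50% of each CK1750 peak and 2725 when CK1750 DMSO peaks were not merged, 226 runs with a 25 kb gap, 21 in place of 14 stretches with 4 or more members when only Tnm2 peaks with a score of at least 100 counted, 12 7-mers in 500 bp, an AP-1 share of 16.1% with no TSS within 5 kb and a median GC of 49.3% at the higher score. Since the lists end at a cutoff, depth limits any statement that a region lacked acetylation in Tnm2.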

Other observations

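On sequences outside chromosomes 1 to 19 and X, CK1750 had 27 peaks in vehicle and 9 in inhibitor, and Tnm2 had 10 and 5. They merged into 27 regions, and 0 of these had the pattern of the members, whereas 15 were called only in CK1750 with DMSO. Of those 15, 12 lay on chromosome Y. Y held 15 merged regions in all, and 3 of them had a Tnm2 peak.

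In promoter members the ETS motif CCGGAAG was found in 6.53% (95% Wilson interval 4.93 to 8.61) of the central 300 bp windows, against 12.7% (12 to 13.5) of promoter regions in all 4 lists and 5.99% (3.87 to 9.17) of Tnm2-only promoters. Noncoding genes alone accounted for the TSS of 94 promoter members (13.4%).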
